A study of Mus musculus with 6 samples.

Results

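The conjugation enzymes of the jejunum were examined as 46 genes: 20 glutathione transferases (Gst), 3 microsomal glutathione transferases (Mgst), 10 UDP-glycosyltransferases (Ugt) and 13 sulfotransferases (Sult). They are all the genes of these families that the platform annotation ties to a probe set naming no other gene, among 18194 genes measured in that way. A total of 59 probe sets named them, and a gene with several was represented by the one that was brightest on average. Jejunum of 3 double knockout males (TIS7, encoded by Ifrd1, and SKMc15, encoded by Ifrd2), numbered 1, 2 and 3, was compared with that of 3 wild type males, numbered 1, 3 and 4. All were on the C57BL/6 background, 7 to 10 weeks old, singly housed and on a diet with 42% of its energy from milk fat, with added cholesterol. The labels give 3 to 8 weeks on this diet for the mice, and 3 weeks for those whose tissue was frozen for RNA. No mice on another diet and no single knockouts were among the 6 arrays, and the labels do not say how the alleles were made.

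Conjugation makes small, fat-soluble molecules easier to excrete by joining a polar group to them. Glutathione transferases add glutathione to reactive compounds, including those that arise when fatty acids are oxidised. UDP-glucuronosyltransferases of the endoplasmic reticulum add glucuronic acid, and cytosolic sulfotransferases add sulfate, to bile acids, steroids, phenols and drugs. In the small intestine these enzymes sit mostly in enterocytes, the absorptive cells, and are a first barrier to what is eaten.

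Levels are log2 values, so that a difference of 1 is a 2-fold difference, and the level of one probe set cannot be set against that of another gene's. Each array came from 1 mouse, and the number of arrays (n = 3 per group) limits the precision. Ifrd2 had 2.64, 2.74 and 2.59 in double knockout mice 1, 2 and 3, against 8.20, 8.32 and 8.61 in wild type mice 1, 3 and 4. Ifrd1 had 6.27, 4.80 and 4.85 in double knockout mice and 10.00, 9.84 and 9.91 in wild type mice. Both targeted transcripts were thus far lower on every double knockout array, and each was seen by 1 probe set whose place relative to the removed part is not given. Of the 18013 probe sets bright enough to be tested, 458 were higher and 347 lower in double knockout jejunum (limma, adjusted p at most 0.05). Array medians lay between 2.87 and 2.90.

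Of the 46 genes, 30 exceeded a log2 level of 4 on at least 3 of the 6 arrays and were tested. Ugt2b36 and Gsta3 fell in double knockout jejunum, 0 genes rose and 28 did not pass. The 2 that fell are 6.67% of the 30, against a background of 1.6% of 9672 tested genes that fell and 3.17% that rose. Fold changes were negative for 23 of the 30, or 76.7%, against 41.9% of all tested genes, and their median was -0.17, against 0.05 over all tested genes. The double knockout and wild type values did not overlap for 15 genes. Of these, 13 (43.3%) were lower, against 14.2% of all tested genes, and 2 (6.67%) were higher, against 22.5%. Without adjustment, 10 of the 30 members were lower and 3 higher at p under 0.05 by limma. Among all 9672 tested genes, 1004 were lower and 1703 higher at this level. Neither call held on every subset of mice: leaving out double knockout mouse 3, or wild type mouse 1, 3 or 4, gave 0 genes that fell. Leaving out double knockout mouse 1 gave 1, and leaving out double knockout mouse 2 gave 2.

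**Figure D1:**
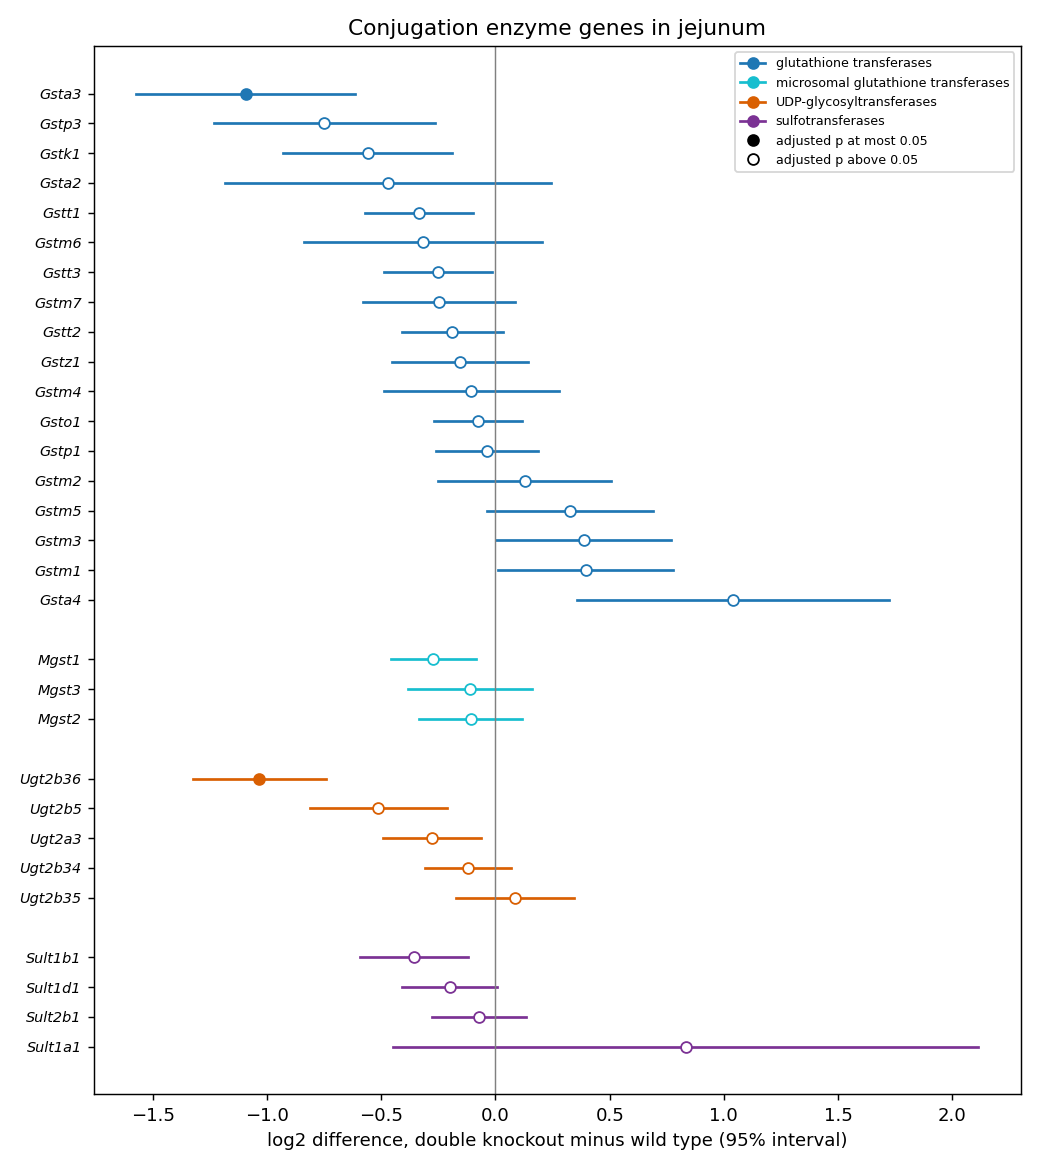
Log2 difference between double knockout and wild type jejunum (x axis) for the 30 measured conjugation enzyme genes (rows, by family); points are limma estimates, bars their 95% intervals and filled points have an adjusted p of at most 0.05. Gsta3 (-1.09) and Ugt2b36 (-1.03) are the filled points, and Gsta4 (1.04) lies farthest on the opposite side with an open point.

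The position of the families among all genes is shown by their fold changes. The median was -0.17 for the 18 measured Gst genes, -0.11 for the 3 Mgst genes, -0.28 for the 5 Ugt genes and -0.14 for the 4 Sult genes. Taken mouse by mouse, the median shift of the 30 genes from the wild type mean was -0.22, -0.09 and -0.17 in double knockout mice 1, 2 and 3. It was -0.10, 0.06 and 0.04 in wild type mice 1, 3 and 4, so double knockout mouse 2 and wild type mouse 1 lay at about the same place. For the 5 Ugt genes the shifts were -0.29, -0.31 and -0.22 in double knockout mice and 0.01, -0.06 and 0.04 in wild type mice, with no overlap.

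**Figure D2:**
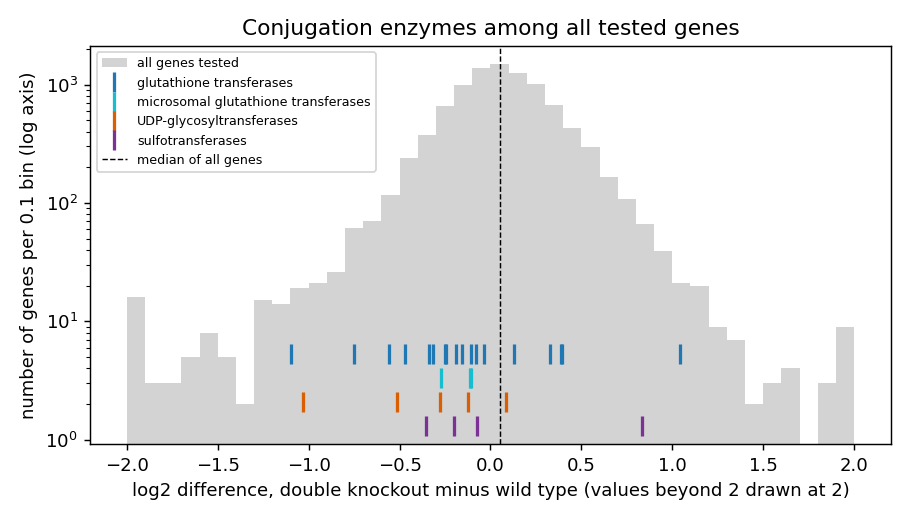
Number of all tested genes per bin of log2 difference, double knockout minus wild type (grey, log axis, bins 0.1 wide), with each measured conjugation enzyme gene as a coloured tick in the row of its family (the height of a row has no meaning) and the median of all genes as a dashed line. Most ticks lie left of the dashed line at 0.05, with Gsta4 and Sult1a1 far to the right.

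Among the UDP-glucuronosyltransferases, Ugt2b36 fell about 2-fold. Its level (probe set 1455595_at) was 7.91, 8.32 and 8.14 in double knockout mice 1, 2 and 3, against 9.22, 9.10 and 9.15 in wild type mice 1, 3 and 4. Every double knockout value lay below every wild type value, and the gap between the groups was wider than the range within either. The log2 fold change was -1.03 ± 0.12 (SE, n = 3 each), a 2.05-fold lower level, with a limma adjusted p of 0.0169. The estimate stayed between -1.13 and -0.92 when any 1 mouse was left out. The call was lost without double knockout mouse 3 (limma adjusted p = 0.0620) or wild type mouse 1, 3 or 4 (0.0651, 0.0522 and 0.0787).

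Ugt2b5, another glucuronosyltransferase of the Ugt2b subfamily, had 10.51, 10.87 and 10.64 in double knockout mice and 11.04, 11.29 and 11.23 in wild type mice. The groups did not overlap, but the difference of -0.51 ± 0.13 (SE) missed the threshold (limma adjusted p = 0.0673, 95% interval -0.81 to -0.21). Ugt2a3, which in humans glucuronidates bile acids, averaged 11.10 ± 0.05 in double knockout and 11.38 ± 0.11 in wild type jejunum (SD), also without overlap (-0.28, limma adjusted p = 0.116). Ugt2b34 averaged 12.49 ± 0.04 in double knockout and 12.61 ± 0.05 in wild type jejunum (-0.12, limma adjusted p = 0.359), and its other probe set gave -0.23. The named probe set of Ugt2b34 carries the suffix that Affymetrix gives to probes matching transcripts of more than 1 gene. Ugt2b35 had overlapping groups and the only positive difference of the family, 0.09 (95% interval -0.17 to 0.34). Thus 4 of the 5 measured Ugt genes had every double knockout value below every wild type value and 1 did not, where 14.2% of all tested genes were lower without overlap.

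The Ugt1a enzymes, which share their last exons and include the bilirubin glucuronosyltransferase, were seen only by 3 probe sets, each annotated with 8 Ugt1a genes, and are not among the 46. No single gene can be named from them. The one with the lowest level had 11.89, 11.98 and 11.93 in double knockout mice and 12.20, 12.25 and 12.27 in wild type mice (-0.31 ± 0.08 SE, limma adjusted p = 0.0714). The next had 12.55, 12.53 and 12.65 in double knockout mice and 12.65, 12.82 and 12.80 in wild type mice (-0.18, adjusted p = 0.244 by limma), with groups that barely overlapped. The brightest had 13.20, 13.20 and 13.20 in double knockout mice and 13.34, 13.36 and 13.35 in wild type mice (-0.15 ± 0.07 SE, limma adjusted p = 0.246). None passed, and all 3 differences were negative.

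**Figure D3:**
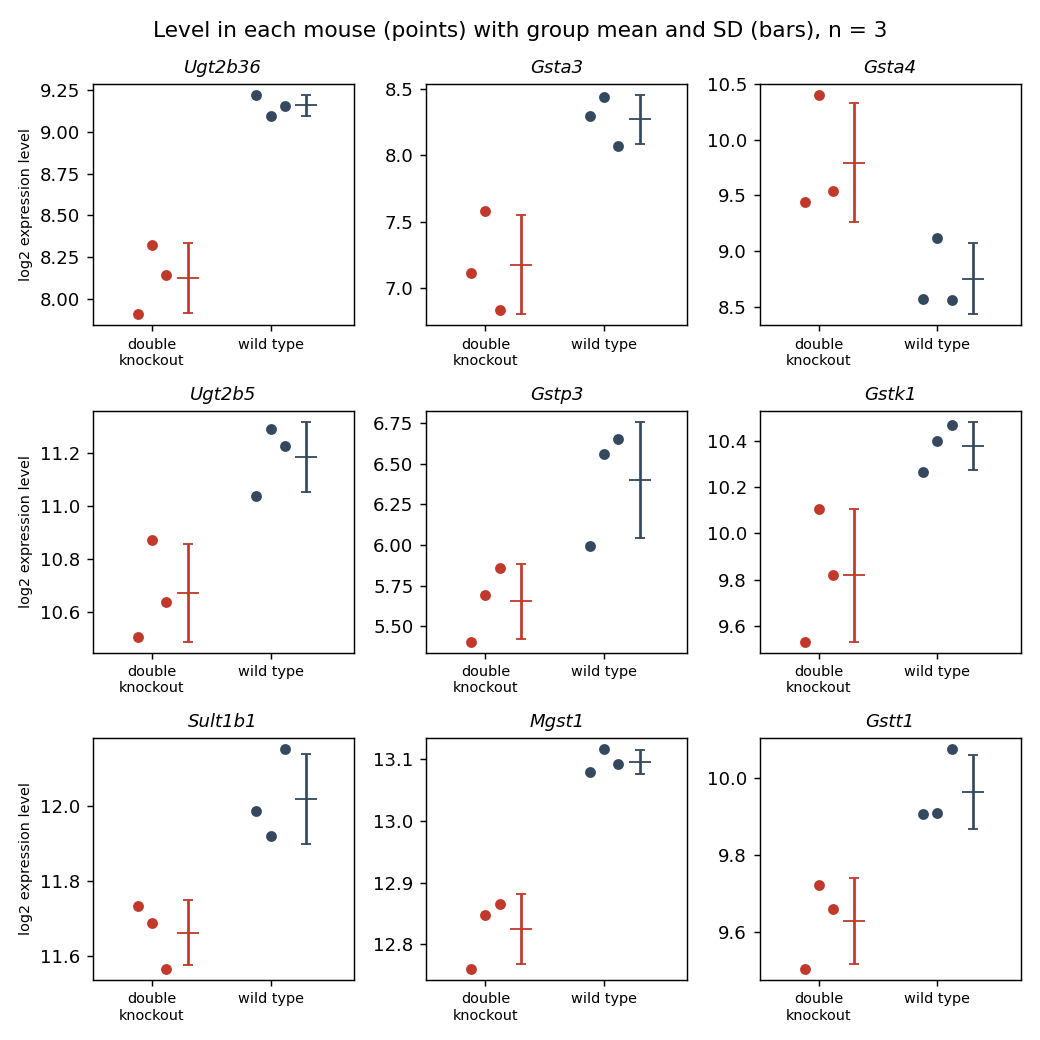
Log2 expression level (y axis, own scale in each panel) of 9 conjugation enzyme genes in each mouse, double knockout left and wild type right (n = 3 each); bars give the group mean and SD. All 9 come from the members whose groups did not overlap (13 lower and 2 higher of 30 measured), so the panels do not represent the families. Among all tested genes, 14.2% were lower and 22.5% higher without overlap. The double knockout mice are higher for Gsta4 and lower for the others.

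In the mouse genome the Ugt2 genes lie side by side with several Sult1 genes on chromosome 5. The run from Ugt2b34 to Sult1e1 held 13 protein-coding genes of GRCm38.p6, all of them of these families, and 11 of them are members. The differences, in chromosomal order, were -0.12 for Ugt2b34, -0.04 for Ugt2b1, 0.09 for Ugt2b35, -1.03 for Ugt2b36, -0.51 for Ugt2b5 and -0.19 for Ugt2b37. They went on with -0.28 for Ugt2a3, -0.42 for Ugt2b38, -0.36 for Sult1b1, -0.20 for Sult1d1 and -0.04 for Sult1e1. Ugt2b1, Ugt2b37, Ugt2b38 and Sult1e1 were under the minimum level, where a difference holds little information. Ugt2b36 and Ugt2b5, which neighbour each other among the members, had the lowest differences of the run, and Ugt2b35, next to Ugt2b36 on the other side, had the only positive one.

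**Figure D4:**
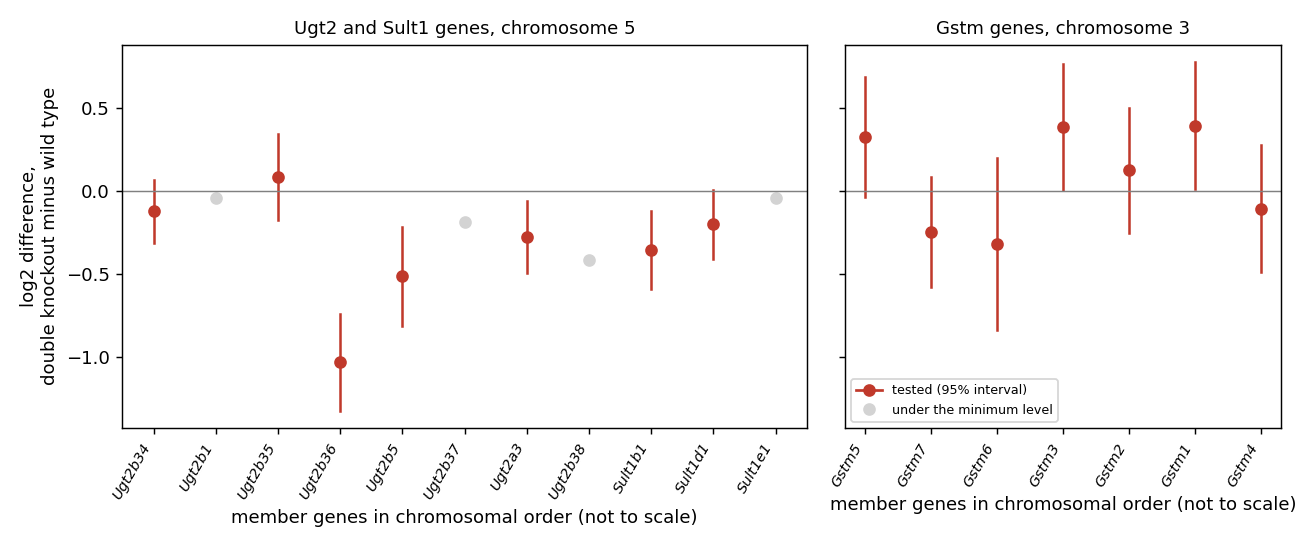
Log2 difference, double knockout minus wild type (y axis), of the member genes in their chromosomal order in the Ugt2 and Sult1 run (left) and the Gstm run (right); bars are 95% intervals of limma and grey points are genes under the minimum level. The lowest value is Ugt2b36 at -1.03, beside Ugt2b5 at -0.51, and the Gstm genes lie on both sides of 0.

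The stretch just upstream of each measured Ugt2 gene is shown for description. Whether it bears on the differences was not tested. The sequences are the 100 bases before the annotated start, 5′ to 3′ on the gene's strand, from RefSeq (GRCm38.p6). Capitals mark GTTA and TAAC separated by 5 bases of any kind, the outline of the site bound by hepatocyte nuclear factor 1, a transcription factor of liver and gut.

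Ugt2b36, chr5:87092556-87092655, minus strand: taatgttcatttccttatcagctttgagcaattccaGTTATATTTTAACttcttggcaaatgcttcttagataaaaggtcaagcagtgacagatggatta
Ugt2b5, chr5:87140341-87140440, minus strand: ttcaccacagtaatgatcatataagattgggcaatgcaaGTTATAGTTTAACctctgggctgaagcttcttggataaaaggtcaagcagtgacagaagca
Ugt2a3, chr5:87337196-87337295, minus strand: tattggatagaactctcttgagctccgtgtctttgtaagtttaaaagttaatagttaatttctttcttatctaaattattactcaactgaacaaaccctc
Ugt2b34, chr5:86906938-86907037, minus strand: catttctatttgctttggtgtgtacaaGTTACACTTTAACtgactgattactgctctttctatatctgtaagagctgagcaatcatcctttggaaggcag
Ugt2b35, chr5:87000760-87000859, plus strand: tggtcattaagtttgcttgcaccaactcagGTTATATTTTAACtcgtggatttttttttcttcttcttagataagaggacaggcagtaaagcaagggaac

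The outline was present in all 4 Ugt2b windows, starting 64 bases before the start in Ugt2b36, 61 in Ugt2b5, 73 in Ugt2b34 and 70 in Ugt2b35, and not in that of Ugt2a3. It was searched for after the sequences had been read. It reads the same on both strands, and 97 of 27025 genes (0.359%) held it in the 250 bases before a start. These 4 were the only ones among the 28 measured members with an entry. Members under the minimum, such as Ugt2b1, Ugt2b37 and Ugt2b38, were not in this count. The 4 are related genes of the same run, so they are not independent cases. The outline was found in Ugt2b35, which had a positive difference, as well as in the 3 that had negative ones. Ugt2b36 and Ugt2b5 also shared an unbroken run of 24 bases near the start, gataaaaggtcaagcagtgacaga, at 31 and 28 bases before it. The longest run that Ugt2b36 shared with Ugt2b35 was 14 bases, gttatattttaact, and with Ugt2b34 it was 8 bases. Counted position by position over the 100 bases, without gaps, Ugt2b36 and Ugt2b5 were identical at 20 positions, the fewest of any pair. Ugt2b36 and Ugt2b35 were identical at 44, the most. The shared runs lie at different distances from the start in the genes, so this count did not line them up. It therefore does not rank how alike the sequences are. These matches describe the letters and do not show binding.

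Among the alpha class glutathione transferases, Gsta3 and Gsta4 had opposite differences, of which that of Gsta3 passed. Gsta3, which in mice detoxifies the aflatoxin epoxide, had 7.11, 7.58 and 6.84 in double knockout mice 1, 2 and 3 on probe set 1423436_at, against 8.30, 8.44 and 8.07 in wild type mice 1, 3 and 4. All 3 double knockout values were below the wild type range. It fell by 1.09 ± 0.20 (SE) on the log2 scale, 2.14-fold, with a limma adjusted p of 0.0385. The other Gsta3 probe set was under the minimum, with values no higher than 2.95 in double knockout mice and at least 3.20 in wild type mice. Estimates with 1 mouse left out lay between -1.30 and -0.93. The call was lost without double knockout mouse 1 or 3 (limma adjusted p = 0.0865 and 0.0972), without wild type mouse 1, 3 or 4 (0.115, 0.0880 and 0.109), and, barely, without the minimum level (0.0509).

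The sequence before the Gsta3 start is shown because alpha class genes are textbook targets of the antioxidant response element, whose core, written TGACNNNGC, is in capitals. It is the 250 bases before the start on the plus strand, chr1:21240335-21240584, from RefSeq (GRCm38.p6).

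Gsta3: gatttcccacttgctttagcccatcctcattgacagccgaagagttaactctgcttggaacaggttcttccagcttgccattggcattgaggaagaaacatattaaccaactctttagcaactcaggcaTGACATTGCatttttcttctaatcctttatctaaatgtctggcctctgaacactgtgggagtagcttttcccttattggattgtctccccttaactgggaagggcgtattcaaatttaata

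The core begins 121 bases before the start of Gsta3. Of the other alpha class members, Gsta2 did not hold the core in its 250 bases and Gsta4 had no entry. Searched on both strands of these stretches, the core was present in 4 of 28 measured members with an entry (Gsta3, Gstm5, Gstm7 and Mgst1). This is 14.3%, against 11.5% of 27025 genes. The core of the aryl hydrocarbon response element, GCGTG, was present in 9 of 28 members, 32.1%, against 30.9% of genes. The letters GTTAATNAT, part of a stricter hepatocyte nuclear factor 1 site, were found only in Sult1d1 among the members (3.57%, against 0.866% of genes), and CAAAGTCCA, a hepatocyte nuclear factor 4 site, in 0 members (0.451% of genes). Members holding the antioxidant core had differences of both signs: -1.09 for Gsta3, -0.27 for Mgst1, -0.25 for Gstm7 and 0.33 for Gstm5.

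Gsta4, which conjugates 4-hydroxynonenal, an end product of lipid peroxidation, had a positive difference. It had 9.44, 10.40 and 9.54 in double knockout mice and 8.58, 9.12 and 8.56 in wild type mice. Every double knockout value exceeded every wild type value, but double knockout mouse 2 stood well above the other two. The difference of 1.04 ± 0.29 (SE), a 2.06-fold higher level, did not pass (limma adjusted p = 0.0843, 95% interval 0.36 to 1.72). It was the highest difference among the 30 measured members and missed the threshold under every alternative run. Gsta4 and Gsta2 lie on chromosome 9, which also carries Ifrd2, and Gsta3 on chromosome 1. Whether the targeted chromosome bears on Gsta4 was not tested. Gsta2 had 6.93, 7.50 and 7.29 in double knockout mice and 7.10, 8.26 and 7.77 in wild type mice, with overlapping groups (-0.47, 95% interval -1.18 to 0.24). The difference was -0.77 without wild type mouse 1, -0.20 without wild type mouse 3 and -1.11 with the RNA quality covariate described last (limma adjusted p = 0.0551). A further probe set annotated with Gsta1, Gsta2 and a predicted gene had overlapping groups as well, at 0.17 (limma adjusted p = 0.469). Probes of these near-identical genes can detect more than 1 of them.

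Of the other classes, Gstp3 and Gstk1 had the lowest differences. Gstp3, of the pi class, had 5.41, 5.69 and 5.86 in double knockout mice and 5.99, 6.56 and 6.65 in wild type mice (-0.75 ± 0.20 SE, limma adjusted p = 0.0822). The highest double knockout and the lowest wild type value lay close together. Its relative Gstp1 stood at 12.95 ± 0.02 in double knockout and 12.99 ± 0.13 in wild type jejunum (SD, n = 3 each), a difference of -0.04 with a 95% interval of -0.26 to 0.19. Gstk1, the kappa class enzyme of mitochondria and peroxisomes, had 9.53, 10.11 and 9.82 in double knockout mice and 10.26, 10.40 and 10.47 in wild type mice. The groups did not overlap, and the difference of -0.56 ± 0.15 (SE) did not pass (limma adjusted p = 0.0857).

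The 3 measured theta class genes all had negative differences, though none passed. Gstt1 had 9.50, 9.72 and 9.66 in double knockout mice and 9.91, 9.91 and 10.08 in wild type mice (-0.34, limma adjusted p = 0.0956). Gstt3 averaged 7.98 ± 0.09 in double knockout and 8.23 ± 0.12 in wild type jejunum, and Gstt2 averaged 9.24 ± 0.10 in double knockout and 9.43 ± 0.08 in wild type jejunum (SD). None of the 3 had overlapping groups, where 14.2% of all tested genes were lower without overlap. All lie in a run of 4 Gstt genes on chromosome 10, with Gstt4, under the minimum, among them. Gsto1, an omega class enzyme that reduces dehydroascorbate, stood at -0.08 (95% interval -0.27 to 0.11). Gstz1, the maleylacetoacetate isomerase of tyrosine breakdown, stood at -0.16 (95% interval -0.45 to 0.14) and lies on chromosome 12, which carries Ifrd1.

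The mu class divided within a single run of 7 neighbouring genes on chromosome 3, and 0 of its 7 members passed. Gstm1 stood at 0.39, Gstm3 at 0.39 and Gstm5 at 0.33, while Gstm6 stood at -0.32, Gstm7 at -0.25 and Gstm4 at -0.11, with Gstm2 between them at 0.13. Gstm3 had 11.02, 11.51 and 11.21 in double knockout mice and 10.93, 11.01 and 10.63 in wild type mice. It was the only mu class gene whose groups did not overlap, and by a narrow margin (limma adjusted p = 0.182). Gstm1 had 9.34, 9.61 and 9.43 in double knockout mice and 8.89, 9.40 and 8.90 in wild type mice. Double knockout mouse 2 and wild type mouse 3 were the highest of their groups for 6 of the 7 genes, all but Gstm6. Single mice moved several of these values: without double knockout mouse 2 the difference was 0.25 for Gstm3, 0.02 for Gstm2 and -0.53 for Gstm6. It was -0.15 for Gstm6 without double knockout mouse 1, -0.38 for Gstm7 without wild type mouse 1 and 0.072 for Gstm4 without wild type mouse 3. The probe sets used for Gstm1 and Gstm3 carry suffixes for probes shared with other transcripts, and their other probe sets above the minimum gave 0.38 and 0.14 for Gstm1 and 0.28 for Gstm3.

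The microsomal glutathione transferases are unrelated membrane proteins. Mgst1, of the endoplasmic reticulum and outer mitochondrial membrane, had 12.76, 12.85 and 12.87 in double knockout mice and 13.08, 13.12 and 13.09 in wild type mice. The 2 groups were each tight and well apart, and the difference of -0.27 ± 0.08 (SE) did not pass (limma adjusted p = 0.0905). Mgst2, which can make leukotriene C4, averaged 11.87 ± 0.09 in double knockout and 11.98 ± 0.09 in wild type jejunum (SD). Mgst3 averaged 12.41 ± 0.19 in double knockout and 12.53 ± 0.04 in wild type jejunum (SD). Both overlapped, with 95% intervals of -0.33 to 0.12 for Mgst2 and -0.39 to 0.16 for Mgst3.

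Of the sulfotransferases, 4 of 13 were above the minimum and 0 passed. Sult1b1, which sulfates thyroid hormones and small phenols, had 11.73, 11.69 and 11.57 in double knockout mice and 11.98, 11.92 and 12.15 in wild type mice. The groups did not overlap (-0.36 ± 0.10 SE, limma adjusted p = 0.0852). Sult1d1, a catecholamine sulfotransferase in mice, had 11.88, 11.77 and 11.94 in double knockout mice and 12.10, 11.99 and 12.10 in wild type mice (-0.20, limma adjusted p = 0.198). Its other probe set gave -0.17. Sult2b1, which sulfates cholesterol, overlapped between the groups at -0.07 (95% interval -0.28 to 0.13). Sult1a1, a phenol sulfotransferase, was close to the minimum and scattered widely, at 4.11, 5.36 and 5.75 in double knockout mice and 4.84, 4.58 and 3.30 in wild type mice. Its difference of 0.83 had a 95% interval of -0.45 to 2.11. It was 1.32 without double knockout mouse 1, 0.50 without double knockout mouse 3 and 0.37 without wild type mouse 4.

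The 16 remaining members never exceeded 3.33 on any array and were not tested. They were Gsto2 and Gstt4, the 5 genes Ugt2b1, Ugt2b37, Ugt2b38, Ugt3a1 and Ugt3a2, and 9 sulfotransferases: Sult1c1, Sult1c2, Sult1e1, Sult2a2, Sult2a8, Sult3a1, Sult4a1, Sult5a1 and Sult6b1. The largest difference among them was that of Ugt2b38, -0.42, at levels between 1.76 and 2.47. Bile acid and estrogen sulfotransferases (Sult2a2, Sult2a8 and Sult1e1) were thus not measurable here in either group, which is not the same as absent.

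Conjugation needs activated donors and exporters, which were described from lists. In glutathione supply and breakdown, 1 of 5 measured genes fell (20%, against 1.6% of all tested genes) and 0 rose. The other 4 had positive differences, and the median of the 5 was 0.16. The one that fell was Gclm, the modifier subunit of the enzyme that starts glutathione synthesis. It had 10.44, 10.81 and 10.71 in double knockout mice and 11.25, 11.28 and 11.37 in wild type mice, and fell by 0.65 ± 0.12 (SE, limma adjusted p = 0.0369). Its catalytic partner Gclc stood at 0.17 (limma adjusted p = 0.382). For UDP-glucuronic acid supply, 0 of 3 passed, with Ugdh, which makes the donor, at -0.23 (limma adjusted p = 0.156). For sulfate donor supply, 0 of 4 passed, with the sulfate transporter Slc26a2 at -0.63 ± 0.14 (SE, limma adjusted p = 0.0565). Gusb, which splits glucuronides, stood at 0.33 (limma adjusted p = 0.179).

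Of 8 measured efflux transporters, Abcc6 fell (12.5%, against 1.6% of all tested genes) and 0 rose. Abcc6, an ATP-dependent transporter, had 3.80, 3.64 and 4.46 in double knockout mice and 5.71, 5.90 and 5.90 in wild type mice. As 2 of its double knockout values were under the minimum and it was tested by virtue of the wild type arrays, only a bound is given: with those values raised to 4, the double knockout level was lower by at least 3.21-fold. On the values as deposited, the limma adjusted p was 0.0156. Abcc2, the apical pump for glutathione and glucuronic acid conjugates, had 11.29, 11.39 and 11.12 in double knockout mice and 11.53, 11.71 and 11.72 in wild type mice. It did not pass (-0.38, limma adjusted p = 0.0846). Abcc3, which exports conjugates towards the blood, stood at 0.29 (limma adjusted p = 0.355). Abcb1a was lower without overlap (-0.50, limma adjusted p = 0.0642) and Abcc1 higher without overlap (0.60, limma adjusted p = 0.117), and neither passed. Of 12 measured transcription factors known to act on these genes, 0 passed. Nfe2l2, which binds the antioxidant response element, had 11.63, 11.66 and 11.79 in double knockout mice and 12.02, 11.95 and 11.92 in wild type mice (-0.27, limma adjusted p = 0.109). Keap1, its inhibitor, stood at 0.05 (limma adjusted p = 0.736).

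A piece of jejunum holds many cell types, and fewer cells of a type and less RNA per cell cannot be told apart in these data. Of 11 measured enterocyte markers 0 passed. Differences were negative for 10, or 90.9%, against 41.9% of all tested genes (median -0.09), and 8, or 72.7%, were lower without overlap, against 14.2%. Their summed linear level was 123774 to 128521 in double knockout mice and 134634 to 137025 in wild type mice. Among all tested genes, 5624 of 9672 had positive differences. Of 6 crypt stem and dividing cell markers, Top2a rose (0.55, limma adjusted p = 0.0344), where 3.17% of all tested genes rose. All 6 differences were positive (median 0.36), and 3, or 50%, were higher without overlap, against 22.5% of all tested genes. The summed level of these 6 markers was 6525 to 7222 in double knockout mice and 4966 to 6432 in wild type mice. All 6 fibroblast and matrix markers had positive differences (median 0.49), with sums of 4694 to 6183 in double knockout mice and 2990 to 4888 in wild type mice. Other lists lay closer to the median of all tested genes, 0.05. Their medians were 0.03 for goblet cell, 0.04 for smooth muscle, 0.06 for immune cell, -0.08 for Paneth cell and 0.12 for enteroendocrine cell markers. Of the ileum markers, Cubn was the 1 measured and fell by 0.78 (limma adjusted p = 0.0186), while Fabp6 and Slc10a2 were under the minimum. Of the duodenum and proximal markers 0 of 2 measured passed, Gata4 at 0.50 without overlap (limma adjusted p = 0.0625) and Onecut2 at 0.14 with overlap, and Pdx1 was under the minimum. The 1 measured tuft cell marker, Rgs13, fell by 1.00 (limma adjusted p = 0.0321), and 3 other tuft cell markers were under the minimum. Cubn and Rgs13 were thus each the only measured gene of their list, and 1.6% of all tested genes fell. Of 4 matched liver markers, Alb, Fgb and Apoh were under the minimum. Ttr was above it, at 6.17, 7.26 and 7.23 in double knockout mice and 6.70, 6.60 and 6.30 in wild type mice (0.35, limma adjusted p = 0.484). All 4 matched pancreatic acinar markers were under the minimum. The part of these shifts in the results on conjugation enzymes was not tested.

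RNA quality was read from the difference between 3′ and 5′ probe sets of 4 control transcripts. It was 1.66, 1.85 and 1.79 in double knockout mice and 1.41, 1.74 and 1.59 in wild type mice, which overlap (exact permutation test, two-sided, p = 0.2, where 3 against 3 allows no p below 0.1). With it as a covariate, 0 conjugation enzyme genes passed and 13 probe sets passed in all. Ugt2b36 then stood at -1.08 (limma adjusted p = 0.108) and Gsta3 at -1.23 (limma adjusted p = 0.161).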

How the data were processed

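The authors deposited a log2 value for each of 45101 probe sets on every Affymetrix array; GCRMA 2.18.0 is named in the submitters' processing notes, without settings. The log2 scale follows from the range of the values. GCRMA subtracts a modelled background, so low levels hold little information. Probe sets were named from the platform annotation: 34958 had 1 gene symbol, 932 several and 9211 none. After removal of 64 controls, probe sets above 4 on at least 3 of 6 arrays were fitted with limma 3.58.1 (lmFit and eBayes, R 4.3.3), double knockout minus wild type, with Benjamini-Hochberg adjustment over all 18013 and a threshold of 0.05. Intervals are limma's 95% intervals, and SE its standard error. Control probe sets and the exact permutation test (scipy 1.17.1) were used for RNA quality. The fit was tested on simulated data.

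The labels name separate mice. No 2 arrays of a group were copies: in every pair, 62.5% or more differed beyond 0.1 in log2 level. The members, lists and tests were chosen with earlier results of these data known. The rule for named genes took every passing member and the 4 of smallest p and 4 of highest mean per family, with genes whose probe sets disagreed by over 0.5, 19 in all; the other 11 measured members were named to account for each. Donor, efflux and transcription factor lists were named by passing members or that of smallest p, and a few others were chosen after their values were seen. Alternatives covered each mouse left out, RNA quality, probe set choice, weights per array, the prior on the variance, blocking by mouse number, raising low values to 4, 2 other normalizations and the minimum level. Promoters are from RefSeq (GRCm38.p6), which had an entry for 28 of 30 measured members (not Gsta4 and Gstt2). No protein sequences were used here. Figures were drawn with matplotlib 3.10.9.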

Additional observations from a re-analysis of the deposited data

How the results depend on the processing

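The count of conjugation enzyme genes that rose was 0 under every alternative run. The count that fell, 2, was 1 without the minimum level, 8 with a variance trend and robust prior (Ugt2b36, Gsta3, Ugt2b5, Ugt2a3, Gstk1, Gstt1, Mgst1 and Sult1b1) and 0 with the replicate block or the 3′ to 5′ covariate; it was 0 to 2 when 1 mouse was left out. It was 3 with a minimum of 6 and 2 under the other alternatives. All called probe sets, 805, numbered 472 without the minimum, 1216 with a minimum of 6, 1730 with the variance trend, 13 with the replicate block, 13 with the covariate and 32 to 435 with 1 mouse left out. The Gst median of -0.17 was -0.30 with the covariate and -0.22 to -0.11 with 1 mouse left out, highest without double knockout mouse 1. The Ugt median of -0.28 was -0.16 without the minimum, -0.20 with the block, -0.23 with the covariate and -0.33 to -0.22 with 1 mouse left out. The Sult median of -0.14 was -0.039 without the minimum and -0.20 with a minimum of 6. The Mgst median of -0.11 was -0.21 with the block, -0.22 with the covariate and -0.22 to -0.076 with 1 mouse left out. Of 453 values for 30 genes, 4 changed sign: Gstm2 (-0.14) and Ugt2b35 (-0.068) with the covariate, and Gstm4 (0.072) and Gstp1 (0.016) without wild type mouse 3. The cause of these shifts was not tested. Under another minimum, both the number of probe sets tested and the genes behind some medians were different. Without the minimum the Ugt and Sult medians took in all 10 and all 13 genes, and with a minimum of 6 the Sult median left out Sult1a1.

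Only numbers 1 and 3 occur in both groups and belong to different mice, so the numbers were not taken as pairs. Deviations of same-numbered mice correlated at 0.02 and 0.30. Differently numbered mice were not compared in this way, so these values do not decide whether the numbers mark pairs. Double knockout mouse 2 and wild type mouse 4 have no counterpart by number. Differences and counts under the replicate block therefore rest on mice 1 and 3 of each group, not on all arrays. Under this block Ugt2b36 stood at -1.13 and Gsta3 at -1.39 (limma adjusted p = 0.143 and 0.133). Precision is limited by 3 arrays a group and, for genes near the minimum such as Sult1a1, by signal close to background.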
